A study of Homo sapiens with 3 samples.

Results

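Gene expression under ZEB1 K80R was compared with that under wild-type ZEB1, across all well-measured protein-coding genes, in 2 RNA sequencing libraries. The cultures carry the label HCT116, an established human line of colorectal carcinoma. The genes were those annotated as protein-coding, outside the mitochondrial and Y chromosomes, whose mean FPKM (fragments per kilobase of gene, scaled by 1 factor per library) over the 2 libraries was at least 1. They numbered 10350 of 19893 such genes before the minimum and of 58735 genes in the whole table. All cultures carried an overexpression construct: wild-type ZEB1, ZEB1 with its lysine 80 changed to arginine (K80R), or, as the control shown beside them, an empty vector. Each group had 1 library, and the labels name no further treatment, time or clone. The spread between cultures is therefore unknown, and no p-value is given. A difference is that of log2(FPKM + 1), K80R minus wild type, where a positive value means a higher level under K80R. Ratios are of FPKM, K80R over wild type, with an exact 95% counting interval in brackets that covers counting error only.

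ZEB1, a transcription factor with zinc fingers, binds E-boxes, represses epithelial genes and drives epithelial-mesenchymal transition, the shift of cells to a motile state. Lysines of transcription factors can be acetylated, ubiquitinated or otherwise modified, and exchanging a lysine for arginine keeps the positive charge while removing the site. The title of the series relates the K80R change to NF-κB signalling, the mesenchymal transition and inflammatory genes. The cytokine and NF-κB genes are treated only briefly here, and the account covers the other gene families.

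In GRCh38, codon 80 of ZEB1 lies in exon 2 on chromosome 10, from 31461216 to 31461218 on the plus strand, in 5 of the 9 coding transcripts of GENCODE 29 (proteins of 288 to 1125 residues). The reference sequence around it is shown because it is the site of the change, with the lysine codon in capitals.
ZEB1 codon 80: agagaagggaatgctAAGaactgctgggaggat
ZEB1 itself (ENSG00000148516; chromosome 10, 31318495 to 31529814) had an FPKM of 5.66 with empty vector, 9.83 with wild-type ZEB1 and 10.3 with K80R. K80R over wild type gave a ratio of 1.05 (0.967 to 1.14), an interval that includes 1. The table gives 1 value per gene, so it does not show which library carried which codon.

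The libraries held 14764535 reads for empty vector, 14322537 for wild-type ZEB1 and 13479517 for K80R, and mitochondrial genes took 1.29%, 7.77% and 9.75% of them. The factors behind the FPKM correspond to 15886593, 13795840 and 13321338 reads in place of these sums, for a reason not stated in the labels. Scaling to the sums would shift log2 FPKM differences by 0.04 for K80R minus wild type, −0.12 for K80R minus empty vector and −0.16 for wild type minus empty vector, so small differences from empty vector are uncertain to that extent. The selected genes took 95.8%, 89.6% and 87.4%. Genes with at least 1 read numbered 18928, 23457 and 24325, the fewest in the empty vector library, which held the most reads. The reason was not tested, and every comparison with empty vector rests on this 1 library. For a gene of 2 kb, 3 reads, the upper limit for a gene with none, equalled 0.0944, 0.109 and 0.113 FPKM. The label HCT116 was checked on 19 genes of colon epithelium: 11 had 0 reads in all 3 libraries, EPCAM, CDH1, CDX2 and VIL1 among them, and the summed FPKM of all 19 was 2.30, 3.18 and 3.54. The highest FPKM of any of them was 3.02. Of 26 markers of leukocytes, endothelium, fibroblasts, neurons, muscle and hepatocytes, 7 had 0 reads throughout and 2 reached 1 (NEFL and PDGFRB), with sums of 74.3, 48.8 and 53.6. The cultures are therefore called by their label only, and the origin of these marker levels was not tested.

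Most genes lay close together in the K80R and wild-type libraries, and genes past 1.5-fold were more often below than above the wild-type level. After correction for gene length this imbalance was small at 1.5-fold but not at 2-fold. The median difference was −0.03, with quartiles of −0.24 and 0.16, and 9809 of 10350 genes were within 1.5-fold. At least 1.5-fold higher under K80R were 138 genes (1.33%), and 403 (3.89%) were at least 1.5-fold lower, by the ratio of FPKM + 1. After the correction for gene length described below, 185 (1.79%) were higher and 215 (2.08%) lower, and 195 of the 403 lower and 88 of the 138 higher genes were still past 1.5-fold. At least 2-fold higher were 9 genes (0.087%) and at least 2-fold lower 69 (0.667%). After the correction these were 16 higher and 56 lower. The counting interval of the ratio lay above 1 for 2674 genes (25.8%) and below 1 for 3450 (33.3%). The intervals are thus narrow against most differences, and a gene outside its interval need not differ between cultures. Just inside the minimum stood MAGEA2, at 1.28 FPKM in the wild-type and 0.727 in the K80R library, and just outside it SPIN3, at 0.796 and 1.2. A gene could pass through 1 library alone: 143 of the genes were below an FPKM of 1 in the wild-type library only, and 107 in the K80R library only.

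**Figure D1:**
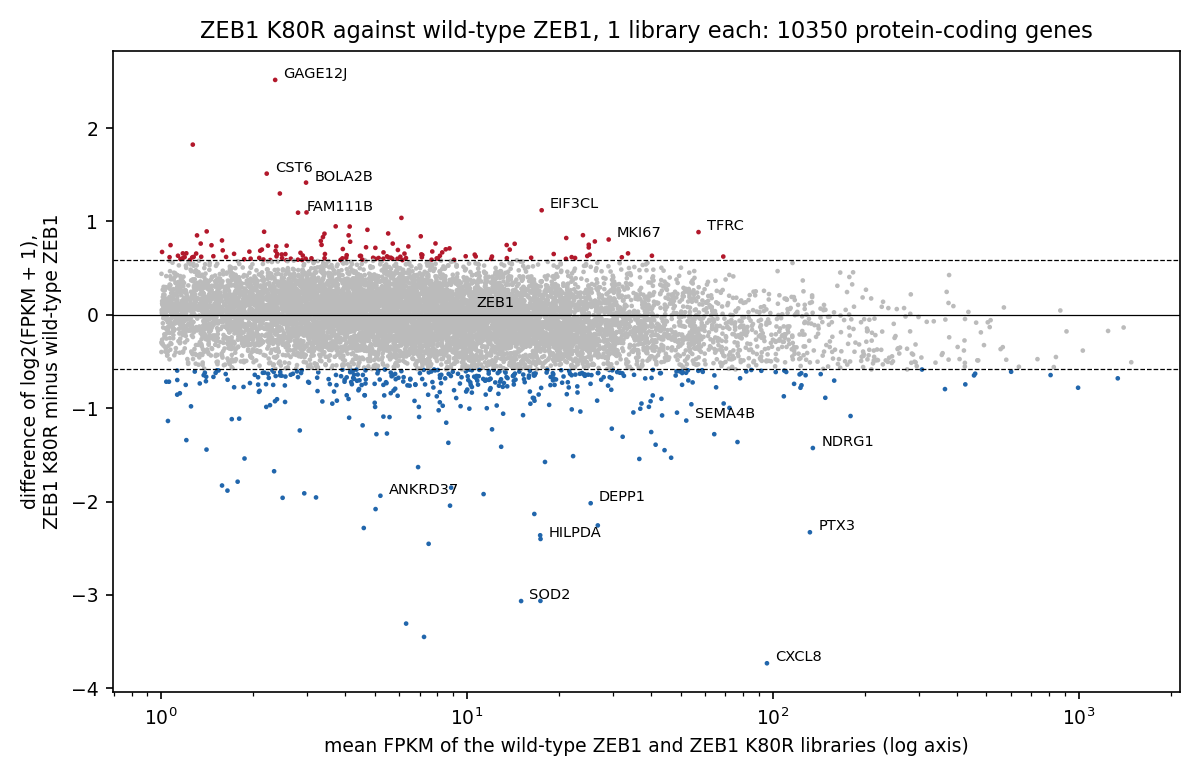
Each point is 1 of 10350 genes, by its mean FPKM over both libraries (log axis) and its difference of log2(FPKM + 1), K80R minus wild type; dashed lines mark 1.5-fold, red points are the 138 higher and blue points the 403 lower genes. Few genes lie far above the upper line, while the lower genes reach −3.73 (CXCL8).

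The genes furthest below wild type were led by inflammatory genes but were not confined to them. The neutrophil chemokine gene CXCL8 (ENSG00000169429; chromosome 4, 73740506 to 73743716) stood at 9.05 FPKM with empty vector, 179 with wild-type ZEB1 and 12.5 with K80R, a ratio of 0.0701 (0.063 to 0.0778). CSF2, ICAM1, TNFAIP3, CXCL3, IL1A, TNFAIP2, TRAF1 and BCL2A1, genes of the same response, were also among the 15 lowest, with differences of −3.45 to −2.04. The mitochondrial superoxide dismutase SOD2 was at 5.74, 27.6 and 2.42 FPKM, the lowest of its 3 values being that under K80R.

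The other members of that group have varied functions, and whether NF-κB acts on them was not tested. HILPDA, a lipid droplet protein induced by low oxygen (ENSG00000135245; chromosome 7, 128455849 to 128458418), had 7.39, 29.9 and 4.86 FPKM in the empty vector, wild-type and K80R libraries, a ratio of 0.162 (0.134 to 0.195). The gelatinase gene MMP9 had 2.13, 29.7 and 4.98, a ratio of 0.168 (0.14 to 0.199). PTX3, a secreted pentraxin of innate immunity, had 39.4, 221 and 43.3, a ratio of 0.195 (0.183 to 0.208). In these genes and in DEPP1, a target of FOXO factors at 6.99, 41.3 and 9.45 FPKM, the wild-type library stood far above both others. Its place above K80R was fixed by their choice. Its place above empty vector was not, though the choice favours a high wild-type value. IL4I1, a secreted amino acid oxidase, completed the 15 at 2.14, 8.29 and 0.908 FPKM.

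The genes furthest above wild type were mostly low and rested on few reads. GAGE12J, a cancer-testis antigen gene, had 0 reads with wild-type ZEB1 and 34 with K80R, at least 11.7-fold higher, and the histone gene HIST1H2AI had 0 and 17, at least 5.87-fold higher. Both folds set the wild-type library at 3 reads and leave out the counting error of the K80R reads. The exact counting intervals start at 9.04 and 4.27. CST6, a secreted inhibitor of cysteine proteases, had 7 and 38 reads, a ratio of 5.62 (2.48 to 14.9), and the peptide hormone gene SCT had 5 and 19, a ratio of 3.94 (1.42 to 13.5). Better covered was FAM111B, a protease gene linked to S phase, at 3.28 FPKM with empty vector, 1.43 with wild type and 4.18 with K80R, a ratio of 2.93 (2.25 to 3.86). The best covered of the 15 highest was TFRC, the transferrin receptor that imports iron (ENSG00000072274; chromosome 3, 196027183 to 196082189), at 62.6, 39.9 and 74.5 FPKM from 4337 wild-type and 7827 K80R reads, a ratio of 1.87 (1.80 to 1.94). CCDC134, RBP5, BRI3BP, POMK, EXO1, FANCB and SOX15 made up the others with differences of 0.89 to 1.10, and in each of them the wild-type library was the lowest of the 3. Its place below K80R was fixed by their choice, which also favours a low wild-type value.

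Several of these genes have near-identical copies, among which the counting can split reads. GAGE12J belongs to 8 GAGE12 genes in the table that together had 0 wild-type and 34 K80R reads. BOLA2B, a factor of iron-sulphur cluster handling, had 16.5, 1.17 and 4.78 FPKM, and with its copy BOLA2 the sums were 16.5, 1.17 and 4.90. EIF3CL, a copy of the translation initiation subunit EIF3C, stood at 10.2, 10.7 and 24.4, but the sum of both copies was 19.7, 23.0 and 32.9, a ratio of 1.43 in place of 2.28. U2AF1, a splicing factor, had a ratio of 2.14 alone and 1.82 with its copy U2AF1L5. The values of single members of these families, and of histone, HLA and ribosomal protein genes, are uncertain to that extent. No source used here gives the strand setting of the counting, so reads of overlapping and antisense genes cannot be told apart.

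The difference between K80R and wild type followed gene length. The length is that in the authors' table, which is 8650 bp for ZEB1 and so far below its genomic span. In 10 equal groups of 1035 genes from shortest to longest, the median differences were −0.29, −0.19, −0.13, −0.08, −0.02, −0.01, 0.02, 0.05, 0.09 and 0.15. In the shortest group (351 to 2165 bp) 14.1% of genes were at least 1.5-fold lower under K80R and 2.03% higher. In the longest (10597 to 46064 bp) 0.193% were lower and 3.0% higher. Short and long genes thus lay on opposite sides with a gap of 0.45 between the medians of the end groups, beside a median of −0.03 over all genes.

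Highly expressed genes at both ends show the pattern. TMSB10, an actin-sequestering thymosin of 496 bp, had 1756.5, 1260.5 and 733 FPKM with empty vector, wild type and K80R, a difference of −0.78. FTL, the ferritin light chain gene of 878 bp, had 1213, 1655 and 1033, a difference of −0.68. At the other end PLEC, a cytoskeletal linker of 16991 bp, had 159, 115 and 137 FPKM, a difference of 0.25, and the membrane receptor DCBLD2, of 11274 bp, had 236, 154 and 212, a difference of 0.46. COL6A3, a collagen VI chain of 19633 bp, had 90.6, 111 and 125 FPKM, a difference of 0.16 that became −0.01 after correction for length.

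**Figure D2:**
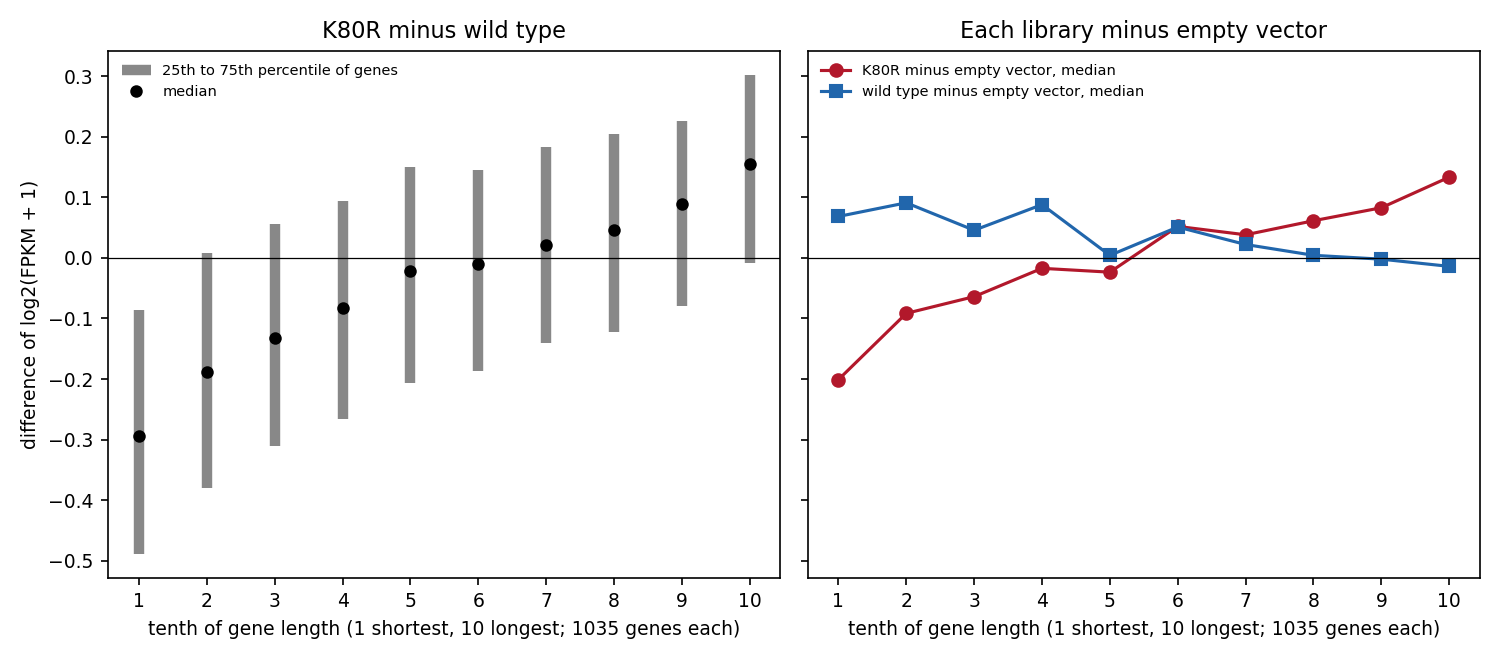
Left, the difference K80R minus wild type in 10 groups of 1035 genes by gene length, with medians (points) and 25th to 75th percentiles (bars); right, the medians of the same groups for each library minus empty vector. The left medians climb from −0.29 to 0.15, and on the right the K80R line climbs from −0.20 to 0.13 while the wild-type line goes from 0.07 to −0.01.

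Against the empty vector library, which both comparisons share, the K80R medians ran from −0.20 in the shortest to 0.13 in the longest group, and the wild-type medians from 0.07 to −0.01. The gap between the end groups was 0.30, 0.43 and 0.53 when the genes were split by mean FPKM into 3 equal parts, from lowest to highest. Base composition moved along with it: across 10 equal groups by GC content of the longest coding transcript the medians went from 0.08 (30.2 to 38.6% GC) to −0.22 (61.9 to 74.4% GC). Within 3 equal parts by GC content the length gap was still 0.36, 0.40 and 0.41, from the lowest to the highest GC. Spearman's rho across genes, which are not independent replicates, was 0.40 between difference and length (n = 10350), −0.33 between difference and GC content (n = 10344) and −0.25 between length and GC content. By chromosome, chromosome 19 had the lowest median at −0.17, or −0.09 after correction for length, followed by chromosome 22 at −0.13. The highest were chromosome 13 and chromosome 4, at 0.06 each. The share of mitochondrial reads was 7.77% in the wild-type and 9.75% in the K80R library, and its part in these trends was not tested.

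Gene families were then described with and without the length trend, by subtracting from each gene the median of its group among 20 equal groups by gene length. Of 62 gene lists, 59 had at least 5 measured members, and 38 of these had a median below 0 and 21 above it. After the correction 32 were below and 27 above. The corrected shares past 1.5-fold to hold the lists against are 1.79% higher and 2.08% lower. Over the lists, 2812 genes were measured at least once, of which 120 were at least 1.5-fold lower and 41 higher before the correction. Of all 10350 genes, 403 (3.89%) were lower and 138 (1.33%) higher. The shares among the 2812 listed genes were close to these, while single lists differed.

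**Figure D3:**
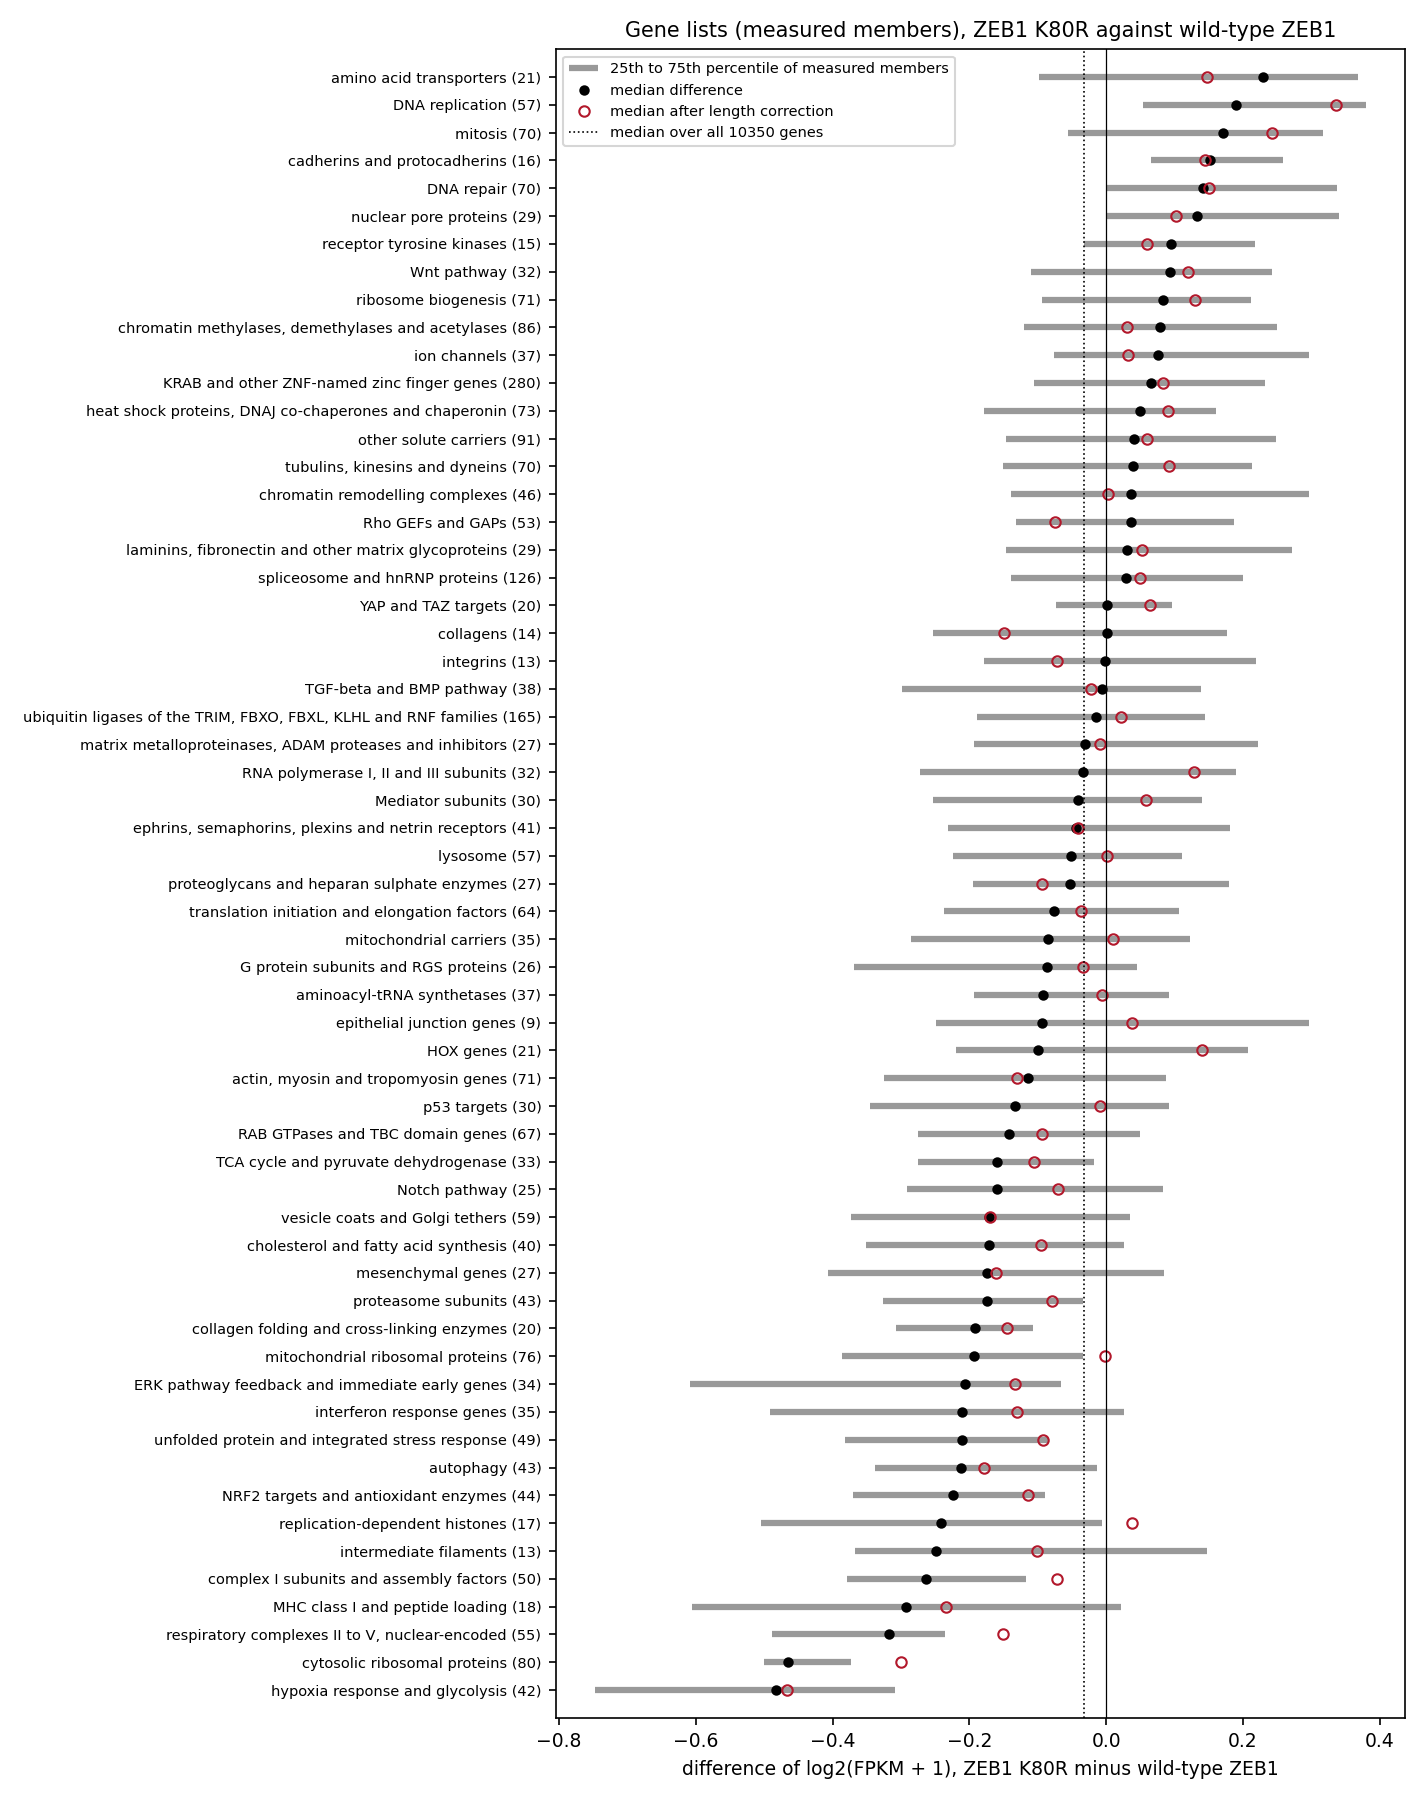
Each row is 1 of 59 gene lists, with its number of measured genes in parentheses, the median difference K80R minus wild type (filled), the 25th to 75th percentile of its genes (bar) and the median after correction for gene length (open). Hypoxia and ribosomal protein genes are lowest, at −0.48 and −0.47, and replication and mitosis genes lie at 0.19 and 0.17 with larger values after the correction.

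Genes of the hypoxia response and glycolysis formed the lowest list, and length did not change that. When oxygen is low, hypoxia-inducible factors bind hypoxia response elements, whose core is ACGTG, and induce genes for glucose uptake, glycolysis and mitophagy. Of 42 measured genes 13 (31.0%) were at least 1.5-fold lower under K80R and none higher, beside 3.89% and 1.33% of all genes. Their median difference was −0.48, and −0.47 after the length correction, with 39 of 42 below 0. All 13 were also past 1.5-fold after the correction, which gave 16 in all. Against empty vector their median was 0.01 for K80R and 0.59 for wild type.

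The 13 lower genes cover several steps of the response. ANKRD37, an ankyrin repeat gene induced by hypoxia (ENSG00000186352; chromosome 4, 185396021 to 185400628), stood at 4.98 FPKM with empty vector, 8.85 with wild type and 1.57 with K80R, a ratio of 0.178 (0.13 to 0.238). CA9, a cell surface carbonic anhydrase that regulates pH, had 5.92, 13.0 and 4.41 FPKM, a ratio of 0.339 (0.267 to 0.428). NDRG1, a stress-induced gene, had 74.2, 198 and 72.9, a ratio of 0.369 (0.36 to 0.378). In these genes the K80R library was the lowest of the 3, by a small margin from empty vector for NDRG1.

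Glucose handling was represented at uptake and at several enzymatic steps. The glucose transporter gene SLC2A3 had 15.1, 47.5 and 22.5 FPKM in the empty vector, wild-type and K80R libraries. Hexokinase 2 (HK2), which traps glucose in the cell, had 32.8, 52.6 and 26.1. The aldolase ALDOC had 13.0, 42.0 and 17.5, and the enolase ENO2 26.6, 56.9 and 23.2, with ratios of 0.416 (0.38 to 0.455) and 0.409 (0.383 to 0.436). The core enzymes of higher expression differed less: PGK1 had 111, 193 and 134 FPKM and LDHA 238, 310 and 240, with differences of −0.53 and −0.36. PGK1 and LDHA were singled out after their values were seen.

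Regulators and effectors of the response were lower too. BHLHE40, a transcriptional repressor, had 29.1, 91.6 and 37.2 FPKM, and MXI1, an antagonist of MYC, 4.28, 13.9 and 6.44. The mitophagy receptors BNIP3L and BNIP3 had 31.9, 49.4 and 25.1, and 22.5, 29.2 and 16.7. PFKFB4, a regulator of glycolytic flux, and P4HA2, a collagen prolyl hydroxylase, completed the 13 with differences of −0.69 and −0.68. The wild-type library was the highest of the 3 in all 13 genes. Its place above K80R was fixed by the choice of these genes. Its place above empty vector was not, though the choice favours a high wild-type value. Only HIF1A (99.6, 128 and 141 FPKM), its partner ARNT (5.37, 5.12 and 5.96) and the lactate transporter SLC16A1 (44.8, 34.8 and 46.0) lay above 0. HIF1A transcripts had a ratio of 1.10 (1.07 to 1.13). The HIF1A protein is not seen in these data, and its part in the lower genes was not tested.

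Promoter windows of 250 bases before the RefSeq start (GRCh38.p14) were searched for ACGTG on both strands, a motif added after the values were seen. The match CACGTG, its own reverse complement, counts on both strands and is also an E-box of the MYC family. The motif was in 22.9% of 12147 windows of 8333 matched genes. Among all genes at least 1.5-fold lower it was in 21.6% of 458 windows, and among those higher in 25.6% of 129. So lower genes in general did not hold it more often. It was in 25 of 66 windows (37.9%) of the measured hypoxia genes and in 9 of 13 windows (69.2%) of those at least 1.5-fold lower. These 13 windows come from 10 of the 13 lower genes, some of which have several starts, and the 66 windows come from 36 of the 42 measured genes. These 5 windows are shown because they belong to genes of that group that hold the motif, in capitals as found on either strand. They lie at chr4:185396591-185396840 (plus), chr9:35673678-35673927 (plus), chr12:6914330-6914579 (plus), chr17:28576896-28577145 (minus) and chr10:131981924-131982173 (minus), in the order printed.
ANKRD37: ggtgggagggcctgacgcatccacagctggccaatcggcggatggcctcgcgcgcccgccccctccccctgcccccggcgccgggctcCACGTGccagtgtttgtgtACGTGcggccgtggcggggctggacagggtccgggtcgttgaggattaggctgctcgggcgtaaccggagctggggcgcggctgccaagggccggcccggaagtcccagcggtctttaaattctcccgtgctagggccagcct
CA9: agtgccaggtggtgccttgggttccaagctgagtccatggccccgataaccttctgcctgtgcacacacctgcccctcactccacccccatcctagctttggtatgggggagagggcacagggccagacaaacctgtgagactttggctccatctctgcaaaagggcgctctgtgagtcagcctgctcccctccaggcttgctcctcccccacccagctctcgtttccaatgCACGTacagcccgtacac
ENO2: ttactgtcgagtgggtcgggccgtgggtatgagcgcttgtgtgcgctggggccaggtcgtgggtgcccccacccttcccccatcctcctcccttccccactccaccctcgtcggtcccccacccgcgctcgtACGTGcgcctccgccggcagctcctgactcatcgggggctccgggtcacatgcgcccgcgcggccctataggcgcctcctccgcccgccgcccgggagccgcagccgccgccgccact
ALDOC: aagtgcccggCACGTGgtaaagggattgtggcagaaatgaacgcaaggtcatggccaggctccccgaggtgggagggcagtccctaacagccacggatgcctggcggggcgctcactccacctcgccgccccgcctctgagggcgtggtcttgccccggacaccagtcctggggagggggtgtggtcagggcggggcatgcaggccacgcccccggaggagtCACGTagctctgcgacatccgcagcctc
BNIP3: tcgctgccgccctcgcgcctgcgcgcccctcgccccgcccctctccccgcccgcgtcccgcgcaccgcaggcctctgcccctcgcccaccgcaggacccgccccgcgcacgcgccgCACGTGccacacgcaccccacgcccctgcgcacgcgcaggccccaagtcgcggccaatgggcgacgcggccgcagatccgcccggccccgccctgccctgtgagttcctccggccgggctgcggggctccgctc
ANKRD37 and ALDOC hold separate matches, the nearest to the start at 143 and 28 bases before it, and the match in CA9 lies 18 bases before its start. A match is a description of letters and not of binding.

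**Figure D4:**
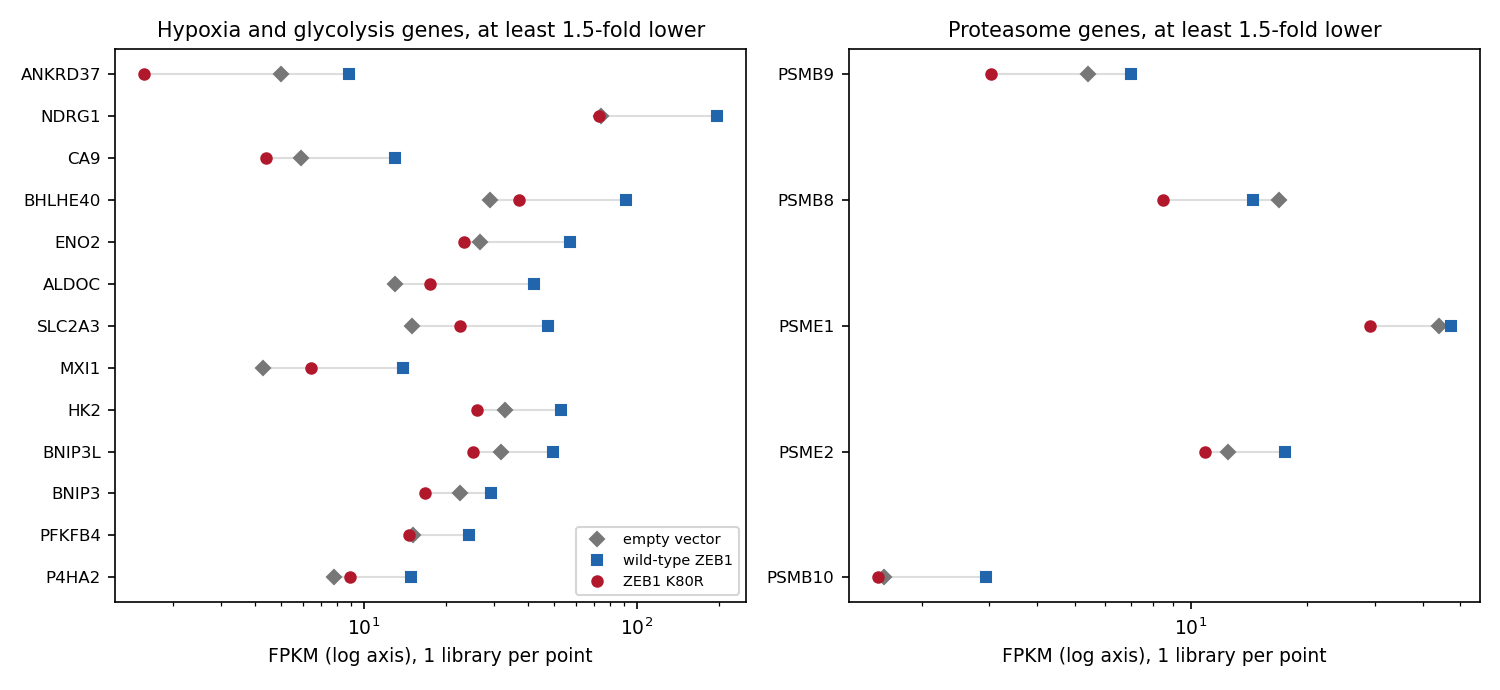
FPKM (log axis) of single genes in the empty vector (grey diamonds), wild-type ZEB1 (blue squares) and ZEB1 K80R (red circles) libraries, 1 library per point; left, the 13 hypoxia and glycolysis genes and right, the 5 proteasome genes at least 1.5-fold lower under K80R. The wild-type library is the highest in all 13 on the left and in 4 of 5 on the right, the exception being PSMB8. The place of wild type above K80R was fixed by the choice of genes, which also favours a high wild-type value.

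Antigen presentation by MHC class I, which shows peptides cut by the proteasome to T cells, was lower in part. Of 18 measured genes 5 (27.8%) were at least 1.5-fold lower and none higher, beside 3.89% and 1.33% of all genes. Their median was −0.29 (−0.23 after the length correction, with 2 lower). The class I heavy chain HLA-B (ENSG00000234745; chromosome 6, 31269491 to 31357188) had 3.40, 12.2 and 4.92 FPKM with empty vector, wild type and K80R, a ratio of 0.404 (0.341 to 0.476). The proteasome subunits PSMB9, PSMB8 and PSMB10 were lower too. TAP2, which carries peptides into the endoplasmic reticulum, lay above 0 at 9.35, 10.6 and 13.7, while its partner TAP1 lay below at 11.7, 20.3 and 14.01; both were singled out after their values were seen.

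Proteasome subunits lay below 0 in 36 of 43 cases. Of the 43 measured subunits 5 were at least 1.5-fold lower and none higher, with a median of −0.17 that became −0.08 after the length correction. The 5 were PSMB9, PSMB8 and PSMB10, the catalytic subunits of the immunoproteasome, and PSME1 and PSME2, subunits of its activator. After the correction only PSMB9 was past 1.5-fold, and PSMB8, PSME2, PSME1 and PSMB10 had differences of −0.56, −0.52, −0.42 and −0.37. PSMB9 had 5.41, 6.98 and 3.03 FPKM, a ratio of 0.434 (0.349 to 0.537), and PSMB8 16.9, 14.5 and 8.49, a ratio of 0.587 (0.512 to 0.672). PSME1 had 44.1, 47.4 and 29.2. The other 38 subunits lay within 1.5-fold. Of 35 interferon response genes, many of which share this regulation, 5 (14.3%) were lower and 1 (2.86%) was higher. Their median was −0.21 (−0.13 corrected, with 3 lower and 1 higher). The transcription factor IRF1 had 2.56, 7.97 and 3.20 FPKM, the RNA sensor IFIH1 1.13, 3.25 and 1.70, and the ubiquitin-like ISG15 23.6, 13.6 and 7.98, while SAMD9, an antiviral factor and the higher one, had 2.14, 2.51 and 4.34.

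Immediate early genes, which growth factor and stress signals switch on through ERK and related kinases, numbered 34, of which 9 were lower and 1 was higher, around a median of −0.21 (−0.13 corrected, with 7 lower and 1 higher). The AP-1 subunit JUNB (ENSG00000171223; chromosome 19, 12791496 to 12793315) had 18.8, 65.3 and 23.3 FPKM, a ratio of 0.356 (0.323 to 0.392). EGR1, a zinc-finger factor of the same class of genes, had 1.18, 7.58 and 2.54, and IER3 had 111, 245 and 115. The AP-1 subunits FOSL1, JUND and JUN were lower too, with differences of −0.89, −0.86 and −0.62. The AP-1 subunit FOS was the higher one, at 4.34, 2.98 and 5.08 FPKM and a ratio of 1.71 (1.37 to 2.13), so most AP-1 subunits past 1.5-fold were lower. By the transcription factor families in the authors' table, bZIP factors, JUNB and FOS among them, had 9 lower and 1 higher of 37 (median −0.28, −0.17 corrected), basic helix-loop-helix factors 6 lower and none higher of 41 (−0.22, −0.11 corrected), and THR-like genes, a family of nuclear receptors, 2 lower and none higher of 11 (−0.30 before and after). MYB-domain genes had none at 1.5-fold in 19 and a median of 0.14 (0.09 corrected). These families were added after the data were seen.

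Cytosolic ribosomal protein genes lay below 0 in 76 of 80 cases, with a median of −0.47 and quartiles of −0.50 and −0.37, yet only 6 passed 1.5-fold. After the length correction the median was −0.30 and 2 were lower. RPL13 (ENSG00000167526; chromosome 16, 89560657 to 89566828) had 187, 157 and 99.6 FPKM with empty vector, wild type and K80R, a ratio of 0.636 (0.619 to 0.654), and RPL28 had 77.9, 124 and 80.7. The 4 above 0, RPL17, RPS10 and RPL36A among them, had differences of 0.10 to 0.39, and all ribosomal protein genes have pseudogene copies that can take reads. The elongation factor EEF1A1 had 2426, 1747 and 1228 FPKM, a ratio of 0.703 (0.697 to 0.709).

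Mitochondrial ribosomal protein genes had 4 of 76 lower (5.26%, beside 3.89% of all genes) and none higher. Their median of −0.19 became −0.00 after the length correction, with 1 lower and 1 higher. MRPS6 stood apart from the others at 14.1, 21.0 and 9.46 FPKM, a ratio of 0.45 (0.406 to 0.498). Subunits and assembly factors of respiratory complex I, the entry point for NADH, had none of 50 beyond 1.5-fold and a median of −0.26, or −0.07 corrected with 1 higher. Nuclear-encoded genes of complexes II to V had 3 of 55 lower (5.45%), with 51 below 0 and a median of −0.32, or −0.15 corrected with 1 lower. COX5B, a subunit of cytochrome oxidase, had 49.0, 49.6 and 30.7 FPKM, and UQCRH, of complex III, 160.5, 149 and 95.5. Ribosome biogenesis genes lay on the other side, with 3 of 71 higher, none lower and a median of 0.08 (0.13 corrected, with 2 higher): NOP56, a box C/D snoRNP protein, had 28.3, 25.9 and 41.4 FPKM, and POLR1A, the largest subunit of RNA polymerase I, 7.37, 5.37 and 8.92.

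DNA replication, repair and mitosis genes lay mostly above wild type. Among 57 measured replication genes, 5 were at least 1.5-fold higher and no gene was lower, with 47 above 0 and a median of 0.19, or 0.34 corrected with 7 higher. CLSPN, which carries the checkpoint signal at stalled forks (ENSG00000092853; chromosome 1, 35720218 to 35769967), had 4.92, 2.64 and 5.56 FPKM with empty vector, wild type and K80R, a ratio of 2.11 (1.77 to 2.51). MCM10, needed to start forks, had 5.09, 3.28 and 6.07, a ratio of 1.85 (1.58 to 2.17). The origin subunit ORC6 had 3.74, 2.94 and 5.14, and the polymerase gene POLE and the helicase component GINS4 were the other 2, with differences of 0.59 and 0.61. Against empty vector the median of the list was −0.12 for K80R and −0.35 for wild type, both below 0.

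Repair genes had 6 of 70 higher, none lower and a median of 0.14 (0.15 corrected, with 5 higher), and 52 lay above 0. The exonuclease EXO1 (ENSG00000174371; chromosome 1, 241847967 to 241895148) had 4.47, 2.98 and 6.47 FPKM, a ratio of 2.17 (1.81 to 2.63). The Fanconi anaemia gene FANCB had 1.16, 0.686 and 2.13, from 34 wild-type and 102 K80R reads, and XRCC2, of homologous recombination, 3.37, 2.15 and 4.61. BARD1 and its partner BRCA1, which act in homologous recombination, had 1.08, 1.12 and 2.34, and 3.04, 2.15 and 3.78. POLQ, of end joining, was the sixth, with a difference of 0.59. In 10 of the 11 higher replication and repair genes the wild-type library was the lowest of the 3, BARD1 being the exception. The place of wild type below K80R was fixed by their choice. Its place below empty vector was not, though the choice favours a low wild-type value. Most of these 11 genes are expressed at low levels, and the median of the repair list was 0.05 with the minimum mean FPKM raised to 5.

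Among 70 mitosis genes 2 were higher (2.86%) and 1 was lower (1.43%), beside 1.33% and 3.89% of all genes. The median was 0.17 (0.24 corrected, with 5 higher and none lower), with 48 above 0. MKI67, the proliferation marker (ENSG00000148773; chromosome 10, 128096659 to 128126385), had 14.8, 20.9 and 37.3 FPKM, a ratio of 1.78 (1.71 to 1.86), and here empty vector and not wild type was lowest. The kinesin KIF20B had 9.83, 5.69 and 9.71. UBE2C, a ubiquitin-conjugating enzyme of the anaphase-promoting complex, was the lower one at 47.0, 78.9 and 49.97, and with 1286 bp it is among the shortest genes. Nuclear pore genes had none of 29 beyond 1.5-fold and a median of 0.13: RANBP2 had 23.3, 16.3 and 24.2 FPKM and NUP214 3.65, 4.58 and 7.14.

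**Figure D5:**
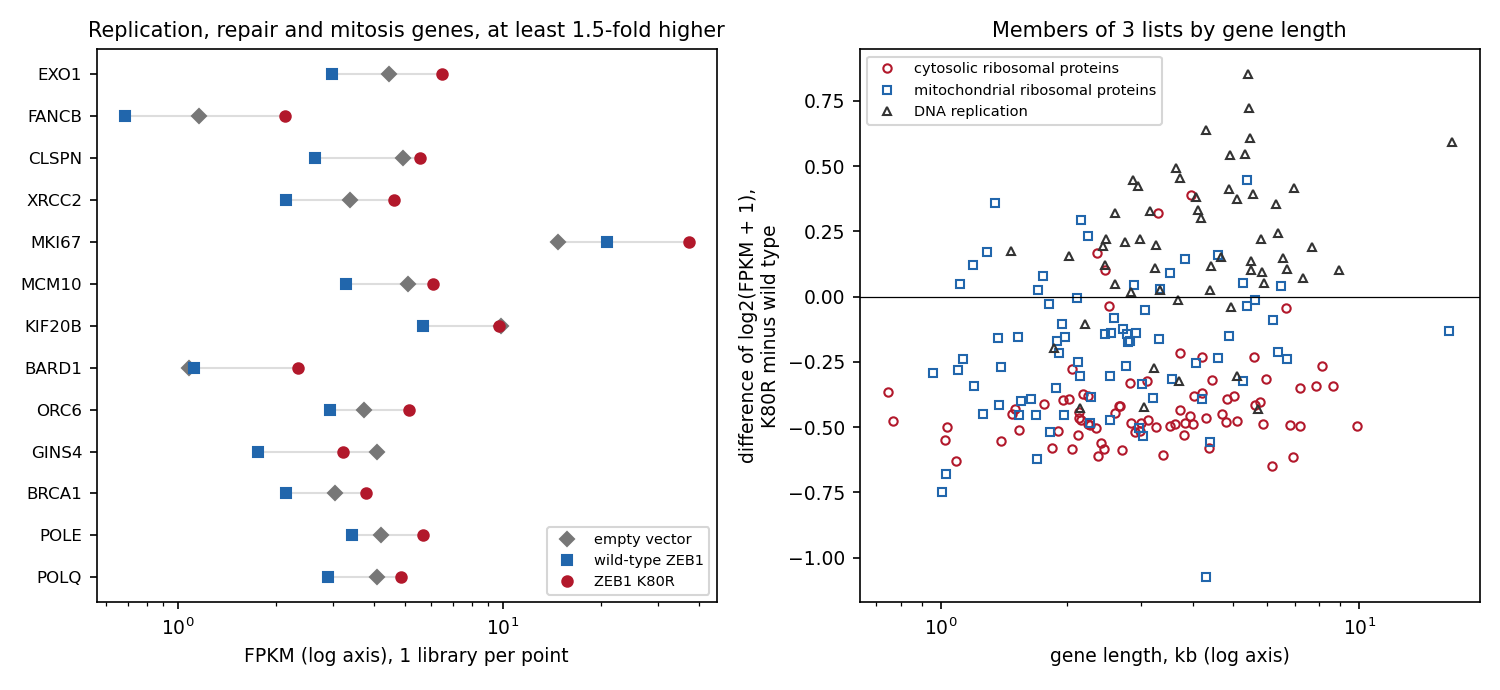
Left, FPKM (log axis) of the 13 replication, repair and mitosis genes at least 1.5-fold higher under K80R in the empty vector, wild-type and K80R libraries; right, the difference K80R minus wild type against gene length (kb, log axis) for the measured genes of 3 lists. On the right the cytosolic ribosomal genes have a median of −0.47 and 47 of the 57 replication genes lie above 0.

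The list of NRF2 targets and antioxidant enzymes had 7 of 44 lower, none higher and a median of −0.22 (−0.11 corrected, with 3 lower), and 37 lay below 0. Beside SOD2 these were GPX4, which reduces lipid peroxides, at 45.4, 52.5 and 27.2 FPKM, the aldose reductase AKR1B1 at 35.7, 56.6 and 29.9, the peroxiredoxin PRDX5 at 128, 141 and 76.5, the malic enzyme ME1, and both ferritin chains. FTH1, the ferritin heavy chain, had 95.7, 156 and 90.4 FPKM, a ratio of 0.579 (0.551 to 0.609). After the correction FTH1, FTL, PRDX5 and ME1 were no longer past 1.5-fold, at −0.52, −0.34, −0.53 and −0.50. SLC7A11, which imports cystine for glutathione synthesis, lay above 0 at 7.93, 6.34 and 9.35.

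Autophagy genes had 5 of 43 lower (11.6%), none higher and a median of −0.21 (−0.18 corrected, with 4 lower). The cargo receptors SQSTM1, at 67.3, 82.7 and 47.9 FPKM, and OPTN, at 12.2, 22.4 and 11.9, were lower, as were WDR45B and the mitophagy receptors BNIP3 and BNIP3L, which the hypoxia list also holds. Genes of the unfolded protein and integrated stress response had 2 of 49 lower (4.08%, near the 3.89% of all genes) and none higher. Their median was −0.21 (−0.09 corrected, with 3 lower). The 2 were CEBPB, a bZIP factor at 55.3, 65.9 and 31.4 FPKM, and DDIT4, an inhibitor of mTOR signalling at 16.9, 15.8 and 7.40. The co-chaperone DNAJC3, at 12.7, 11.2 and 16.8, was the highest of that list. Heat shock and chaperonin genes had 1 of 73 lower, none after the correction, and a median of 0.05, with HSPA8 at 368, 322 and 433 FPKM.

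Secretory and lipid genes held lower genes at shares around or above the 3.89% of all genes. Vesicle coat and Golgi tether genes had 2 of 59 lower (3.39%; AP2S1 and ARF5), none higher, and a median of −0.17 both before and after the length correction, which left none past 1.5-fold. Cholesterol and fatty acid synthesis genes had 3 of 40 lower (7.5%), none higher and a median of −0.17 (−0.09 corrected, with 3 lower): INSIG2, which retains the sterol sensor in the endoplasmic reticulum, had 12.8, 20.8 and 11.3 FPKM, and ACSS2, which makes acetyl-CoA, 16.2, 26.6 and 16.8. RAB GTPase and TBC domain genes had 6 of 67 lower (8.96%) and 1 higher (median −0.14, −0.09 corrected with 3 lower and 1 higher), led by RAB20 at 1.58, 4.39 and 1.29. Lysosomal genes, in contrast, had none of 57 beyond 1.5-fold and a median of −0.05.

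Genes of the mesenchymal state, to which ZEB1 drives cells, were mixed. Among 27 measured genes 3 were lower (11.1%) and 1 was higher (3.70%), beside 3.89% and 1.33% of all genes. The median was −0.17 (−0.16 corrected). The lower ones were all transcription factors of the transition: TWIST1 at 2.60, 6.88 and 3.10 FPKM, SNAI2 at 3.02, 10.6 and 5.33 and SNAI1 at 3.55, 5.93 and 3.12, with ratios of 0.451 (0.345 to 0.585), 0.503 (0.43 to 0.588) and 0.525 (0.388 to 0.705). The higher one was the fibrillar collagen COL5A1, at 17.1, 14.7 and 23.7. After the length correction TWIST1 and SNAI2 were past 1.5-fold, SNAI1 was at −0.41, and no gene was higher. The 3 factors were nearer to empty vector under K80R than under wild type. Their place below wild type was fixed by their choice as lower genes, and the level of empty vector was not. The choice also favours a high wild-type value, and so a wild type far from both other libraries. Of 9 measured epithelial junction genes none passed 1.5-fold, with a median of −0.09 (0.04 corrected).

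Surface and matrix lists had medians on both sides of 0. Among 16 cadherins and protocadherins, which hold cells together, 1 was higher and no gene was lower, and the median was 0.15 (0.14 corrected, with none past 1.5-fold): the giant cadherin FAT1 had 20.7, 18.4 and 31.6 FPKM, a ratio of 1.72 (1.65 to 1.79), and the desmosomal DSG2 had 21.1, 27.9 and 39.9. Integrins had none of 13 beyond 1.5-fold and a median of −0.00. Collagens had 1 of 14 higher and a median of 0.00, or −0.15 corrected with none higher, and matrix glycoproteins 1 higher and 2 lower of 29 (median 0.03). THBS1, an adhesive thrombospondin, was higher at 17.8, 19.2 and 30.3 FPKM, and the laminin chain LAMB3 was lower at 294, 534 and 318. After the correction THBS1 was no longer past 1.5-fold, 1 other matrix glycoprotein was higher and the same 2 were lower. Collagen folding and cross-linking enzymes lay below 0 in 18 of 20 cases, with 1 past 1.5-fold (P4HA2) and a median of −0.19 (−0.15 corrected). The heparan sulphate proteoglycan SDC4, at 50.7, 91.4 and 46.8, the guidance ligand SEMA4B, at 18.4, 72.0 and 32.3, and its fellow ligand EFNA1 were lower members of lists with medians of −0.05 and −0.04.

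In the TGF-β, Notch and p53 lists the share of lower genes was above the 3.89% of all genes, on 2 or 3 genes each. The TGF-β and BMP pathway had 3 of 38 lower (7.89%; 1 lower and 1 higher after the length correction) and a median of −0.01, and its lower genes were INHBA, an activin subunit at 2.46, 10.975 and 2.87 FPKM, BMP2 and ID3. Notch pathway genes had 2 of 25 lower (8.0%; median −0.16, −0.07 corrected with 1 lower, and −0.012 at a mean FPKM of at least 5), the ligase DTX4 at 1.07, 2.70 and 0.705 and the repressor HES4. Wnt pathway genes had 1 of 32 higher, none after the correction, and a median of 0.09, the co-receptor LRP6 at 7.82, 4.56 and 7.55. Receptor tyrosine kinases had none of 15 beyond 1.5-fold and a median of 0.09, with MET at 37.2, 36.6 and 51.3. Targets of p53 had 2 of 30 lower (6.67%; BBC3 and PLK3; median −0.13, −0.01 corrected with 1 lower), and YAP and TAZ targets 1 of 20 (NUAK2; median 0.00).

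Of 280 measured zinc-finger genes named ZNF or ZFP, 8 were lower and 3 higher, shares of 2.86% and 1.07%, near those of all genes, with a median of 0.06 (0.08 corrected, with 4 lower and 5 higher). Chromatin-modifying enzymes had 1 of 86 higher, the methyltransferase KMT2D at 8.80, 6.40 and 11.1 FPKM, with a gene length of 20485 bp, and a median of 0.08 (0.03 corrected). After the correction KMT2D was no longer past 1.5-fold, 1 other gene was higher and 2 were lower. Remodelling complexes had 2 of 46 higher, CHD7 and BAZ1B, none after the correction, and a median of 0.04. Replication-dependent histones had 3 lower and 2 higher of 17 and a median of −0.24 that turned to 0.04 after the length correction, which left none lower and 2 higher. HIST1H2AI, with its 0 wild-type reads, is the highest of them also at its bound, so it does not move that median. Spliceosome genes had 3 lower and 1 higher of 126 and a median of 0.03 (0.05 corrected, with none lower and 2 higher).

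Transporter lists lay on both sides of 0. Amino acid transporters had none of 21 beyond 1.5-fold but the highest median of all 59 lists, 0.23 (0.15 corrected), with SLC38A1 at 16.2, 16.2 and 24.3 FPKM and SLC7A2 at 5.52, 4.66 and 6.65. Ion channels had 1 of 37 higher, KCNAB3 with 53 wild-type and 127 K80R reads, and a median of 0.08 (0.03 corrected). Other solute carriers had 2 higher and 2 lower of 91, or 3 higher and 1 lower after the correction, and a median of 0.04. SLC23A2, a vitamin C transporter, had 8.66, 9.29 and 14.9. Mitochondrial carriers lay below 0 in 21 of 35 cases, with 1 lower (SLC25A1, the citrate carrier, a difference of −0.70, or −0.44 corrected), none higher and a median of −0.09 (0.01 corrected).

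Actin, myosin and tropomyosin genes had 3 of 71 lower (4.23%) and none higher (median −0.12, −0.13 corrected with 1 lower), TMSB10 among them with MYL12A, a myosin light chain at 29.9, 69.0 and 45.2 FPKM. Tubulin, kinesin and dynein genes had 2 lower and 1 higher of 70 (median 0.04, 0.09 corrected with none lower and 1 higher). Intermediate filament genes had none of 13 (−0.25, −0.10 corrected with 1 lower). In central metabolism, TCA cycle and pyruvate dehydrogenase genes had 2 of 33 lower (6.06%; median −0.16, −0.11 corrected with 1 lower), IDH2 and PCK2, which makes phosphoenolpyruvate, at 14.3, 17.5 and 10.8. Translation factors had 1 lower and 1 higher of 64 (median −0.08), the lower being EIF4EBP1, an inhibitor of cap-dependent translation at 88.3, 147 and 87.7 FPKM, and aminoacyl-tRNA synthetases none of 37 (−0.09). After the correction EIF4EBP1 was no longer past 1.5-fold, and 1 translation factor and 2 synthetases were higher. Ubiquitin ligases of the TRIM, FBXO, FBXL, KLHL and RNF families had 4 lower and 1 higher of 165 (median −0.01, 0.02 corrected with 4 lower and 3 higher). HOX genes, which give cells positional identity, had 1 of 21 higher, HOXB6 at 17.7, 7.04 and 11.1 FPKM (median −0.10, 0.14 corrected with 3 higher).

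The E-box CACCTG, a site that ZEB1 is known to bind, was searched in the same promoter windows on both strands. It was in 15.1% of all windows, in 14 of 73 windows (19.2%) of genes at least 2-fold lower under K80R and in 0 of 4 windows of genes at least 2-fold higher. With the threshold of 1.5-fold the shares were 15.9% among lower and 10.9% among higher genes. The promoters of SOD2, ICAM1 and CA9 were among those that hold it. These shares describe letters in a window of 250 bases, and their nearness or distance from the share of all windows was not tested.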

How the data were processed

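RNA sequencing of 3 libraries labelled HCT116 (wild-type ZEB1, ZEB1 K80R and empty vector, 1 each, grouped by the genotype in the labels) was deposited as a table of FPKM for 58735 genes. Per the labels' protocols, the RNA reagent was RNAiso Plus and the library kit a SMARTER mRNA kit. Per the submitters' processing notes, CASAVA, featureCounts 1.5.0-p3, DESeq2 1.20.0 and build hg38 were used, in roles not given there, and the aligner and the strand setting are not given in the sources used here. All 58735 identifiers and coordinates were those of GENCODE 29 (GRCh38).

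FPKM times gene length was a whole multiple of 1 step for 100.0% of the values above 0 within 0.05 reads, which gave the reads behind each value. Their sums were 14764535, 14322537 and 13479517. The reads served only for exact conditional (Clopper-Pearson) 95% intervals, which hold counting error alone, because copies of 1 molecule are not independent reads. A count test between conditions was not made, because each group has 1 library and no spread between cultures can be estimated. Differences are of log2(FPKM + 1), a scale that understates those of low genes, at a minimum mean FPKM of 1. FPKM is relative to the other genes of a library. Transcription factor families are those in the authors' table, for genes past the same minimum. Scripts used Python 3.11.15, numpy 2.4.6, pandas 2.3.3 and scipy 1.17.1 and were tested on simulated data.

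The genes compared, the 62 lists and all thresholds were chosen with earlier results of these data known. Named genes were ZEB1, the 15 with the largest difference in each direction, up to 4 per list with the largest absolute difference, and the 3 with the highest mean FPKM in the shortest and longest of 10 groups by gene length, 260 in all, of which the text names a part. Other members past 1.5-fold, or above 0 where few were, were named after their values were seen. Alternatives were a pseudocount of 0.1, no minimum or a minimum of 5, a common sum of FPKM, a median ratio scaling, a correction for length and, added after the data were seen, one for GC content.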

Additional observations from a re-analysis of the deposited data

How the results depend on the processing

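Leaving out a replicate was not possible with 1 library per group. No paired analysis was possible because each group had 1 library and the labels give no shared replicate numbers. With a pseudocount of 0.1 the genes at least 1.5-fold higher and lower were 350 and 619, and those at least 2-fold higher and lower 44 and 122, against 138, 403, 9 and 69. At a mean FPKM of at least 5 the higher genes were 61 at 1.5-fold and 2 at 2-fold. After the length correction 215 were at least 1.5-fold lower and 185 higher, and 56 at least 2-fold lower and 16 higher. The gap between the longest and the shortest of 10 length groups was 0.51 with a pseudocount of 0.1, 0.36 after a GC correction and 0.33 by genomic span, against 0.45. The length correction moved the medians of histones to 0.038 (the other sign), replication to 0.34, mitosis to 0.24, cytosolic ribosomal genes to −0.30, mitochondrial ribosomal genes to −0.0022, ribosome biogenesis to 0.13, the proteasome to −0.079, the unfolded protein response to −0.092, complex I to −0.072, complexes II to V to −0.15 and NRF2 targets to −0.11, and the difference of COL6A3 to −0.014 (the other sign). The GC correction moved cytosolic ribosomal genes to −0.41, collagen enzymes to −0.040 and ion channels to 0.18. At a mean of at least 5 the medians were 0.051 for repair, 0.013 for zinc-finger genes, −0.052 for ubiquitin ligases and −0.069 for tubulins, against 0.14, 0.065, −0.015 and 0.040. Zinc-finger genes were at 0.086 with a pseudocount of 0.1 and 0.091 by the median ratio, which put the TGF-β pathway at 0.026. Beyond the effect of subtracting length or GC content, the cause was not tested. The list medians above left a 95% rank interval of the reported median over the list's genes, and those below stayed within it. Without a minimum, intermediate filaments were at −0.038, histones at −0.067, RAB and TBC genes at −0.053, cadherins at 0.051 and amino acid transporters at 0.12. Of 59 list medians the sign changed in 10 under the length correction (HOX genes to 0.14, epithelial junction genes to 0.038), 9 under the GC correction, 9 without a minimum, 5 at a mean of at least 5, 3 by the median ratio, 2 with a common sum and 1 with a pseudocount of 0.1. Of 1753 values of the 260 named genes, 1628 lay no further from the reported one than the farther limit of its 95% counting interval, 124 lay further and 1 reversed a difference whose interval excludes 1. With single libraries, depth limits only the low genes, such as those with fewer than 3 reads in a library.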
